A study of Homo sapiens with 4 samples.

Results

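The regions described here are the stretches of open chromatin on human chromosome 17 that were found in every library of the series. Peaks of the 4 libraries were merged where they overlapped by at least 1 bp, and a merged region on chromosome 17 was a member when all 4 libraries had a peak in it. There were 2783 members among 50771 such regions on chromosomes 1 to 22 and X. On chromosome 17, 43.9% of the 6337 merged regions were found in all 4 libraries, against 39.6% of merged regions over all chromosomes. The chromosome was picked because its share of counts differed between the treatment groups, so that difference is given as a description and supports nothing. The question was whether the shift runs along the whole chromosome or sits in parts of it.

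The nuclei are of Panc1, an established cell line of human pancreatic ductal adenocarcinoma, taken from transplanted mice. Mice 12 and 31 received carrier, and mice 11 and 35 received Inflachromene, a compound that binds HMGB1 and HMGB2, which bend DNA in chromatin. Each library is 1 mouse, so there are 2 Carrier and 2 Inflachromene libraries, called Carrier 12, Carrier 31, Inflachromene 11 and Inflachromene 35 here. The labels give no dose, length of treatment, age or sex, and all libraries share the line and the pancreas as tissue. Open chromatin was read by single-cell ATAC-seq, in which a transposase cuts accessible DNA.

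Chromosome 17 is a gene-dense chromosome that carries NF1, ERBB2, BRCA1, TOP2A, STAT3 and SOX9 on its long arm. Counts of open chromatin scale with the amount of DNA in a nucleus as well as with how open that DNA is, and in cancer lines arms or parts of arms are often gained or lost. The amount of DNA and its openness cannot be told apart in these counts.

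The libraries held 27088391 to 39947056 counts in 2039 to 5186 barcodes. Between 684 and 1768 barcodes per library had 10000 or more counts; these deep barcodes are called nuclei here and held 88.0% to 94.6% of the counts. Many barcode sequences occurred in more than 1 library. Carrier 12 and Inflachromene 11 shared 1209, which is 29.7% of the smaller list, and the other 5 pairs shared 25 to 357. Over the 6 pairs, 16 shared sequences were deep in both libraries. Barcodes found in more than 1 library held 58.5% and 61.8% of the counts of Carrier 12 and Carrier 31, and 3.26% and 1.34% of those of Inflachromene 11 and Inflachromene 35, so results are also given without them. Of the preset markers, 4 of 5 carcinoma genes had a region at their start or outer end (KRT18, KRT19, EPCAM and CDH1), with summed levels of 50.7 to 56.0 CPM (counts scaled to a total of 1000000 per library after TMM adjustment). Of the mesenchymal markers 2 of 3 had one (COL1A1 and FN1, 122 to 140 CPM in sum), of the leukocyte markers 1 of 4 (CD3E, 6.96 to 10.8 CPM), and of the endothelial and acinar markers 0 of 3 each.

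Members had a median width of 933 bp, and 606 of them (21.8%) lay over a gene start, against 21.5% of all regions. The widest stretch of chromosome 17 without a member, 3.39 Mb, runs from 22528720 to 25919759 (GRCh38) and was used to divide the arms: 728 members lie on the short arm and 2055 on the long arm. RefSeq start windows were at hand for 824 protein-coding genes of chromosome 17, and 560 of these (68.0%) had a member at their start, against 63.2% over all chromosomes. Start sequences with a member were richer in G and C: the 250 bases before the start had a median of 66.8% G and C, against 55.6% at the 264 starts without a member. Observed over expected CpG was 0.85 with a member and 0.29 without. The GC box, GGGCGG on either strand, was in 74.1% of the starts with a member and 28.8% of those without, and in 57.5% of all 15812 start windows of the genome. TATAAA on either strand was in 4.29% with a member, 29.2% without and 8.99% of all starts. CCAAT on either strand was in 36.8%, 36.4% and 34.7%.

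To show what open and closed starts of the chromosome look like, the 250 bases before the start of 4 genes are printed 5′ to 3′ on the strand of the gene, from RefSeq (GRCh38.p14). Capitals mark these 3 motifs on either strand, and none overlaps another in these windows. FAM117A (chr17:49764132-49764381, minus strand) has the member at a gene start with the lowest unadjusted p among those lower under Inflachromene. STAT3 (chr17:42388443-42388692, minus strand), the transcription factor of interleukin 6 signalling, and ERBB2 (chr17:39687844-39688093, plus strand), a receptor tyrosine kinase, are starts with a member. CCL7 (chr17:34269971-34270220, plus strand), a chemokine gene, has no member at its start, and its start window is, of those at hand, the nearest to the member with the largest positive fold change between treatments (17001 bp away); that member lies closer to CCL2, which has no window at hand.
FAM117A: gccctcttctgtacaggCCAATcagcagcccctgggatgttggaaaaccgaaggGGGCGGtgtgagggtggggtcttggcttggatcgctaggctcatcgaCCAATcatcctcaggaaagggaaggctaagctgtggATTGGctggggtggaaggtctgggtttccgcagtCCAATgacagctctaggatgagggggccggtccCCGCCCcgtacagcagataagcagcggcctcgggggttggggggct
STAT3: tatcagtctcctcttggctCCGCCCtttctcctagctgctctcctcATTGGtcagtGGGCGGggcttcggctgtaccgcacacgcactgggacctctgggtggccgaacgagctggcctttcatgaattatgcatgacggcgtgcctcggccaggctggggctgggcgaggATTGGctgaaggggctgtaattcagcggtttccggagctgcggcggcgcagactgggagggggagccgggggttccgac
ERBB2: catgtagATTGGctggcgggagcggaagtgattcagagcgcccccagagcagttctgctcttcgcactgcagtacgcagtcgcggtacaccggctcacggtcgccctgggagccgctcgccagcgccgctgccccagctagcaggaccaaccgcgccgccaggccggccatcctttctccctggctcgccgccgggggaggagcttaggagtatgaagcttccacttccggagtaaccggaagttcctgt
CCL7: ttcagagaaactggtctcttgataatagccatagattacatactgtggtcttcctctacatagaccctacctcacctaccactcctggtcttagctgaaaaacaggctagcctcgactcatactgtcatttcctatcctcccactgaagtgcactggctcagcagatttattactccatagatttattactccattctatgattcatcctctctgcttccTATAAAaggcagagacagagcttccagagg

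The window of FAM117A holds 2 GC boxes and 4 CCAAT motifs, and that of STAT3 holds 2 of each. The ERBB2 window holds 1 CCAAT motif and 0 GC boxes. CCL7 holds 1 TATAAA, close to its start, and 43.6% G and C, against 61.6% to 65.6% in the other windows. A match is a description of these letters and not of a factor bound there.

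Chromosome 17 held 6.64% and 6.77% of the counts in Carrier 12 and Carrier 31, and 6.47% and 6.40% in Inflachromene 11 and Inflachromene 35. Both Inflachromene libraries lay below both Carrier libraries. The means were 6.43% ± 0.0470 under Inflachromene and 6.71% ± 0.0946 under Carrier (SD, n = 2 each). They differed by -0.27 percentage points, or -0.06 on the log2 scale. Groups did not overlap for 9 of 23 chromosomes (39.1%), 6 of which (26.1%) were lower under Inflachromene. With 2 libraries against 2 the smallest p of an exact two-sided permutation test is 0.333, the value found here. In summed counts, fewer nuclei of a kind and less signal per nucleus cannot be told apart.

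The difference lay on the long arm. The short arm held 1.73% and 1.82% of the counts in Carrier 12 and Carrier 31 and 1.78% and 1.69% in Inflachromene 11 and Inflachromene 35, so its groups overlapped (exact permutation p = 0.667). The long arm held 4.91% and 4.95% under Carrier and 4.69% and 4.71% under Inflachromene, without overlap (exact permutation p = 0.333, the smallest possible). The long-arm difference was -0.07 on the log2 scale and the short-arm difference -0.03. It was -0.07 at the 429 long-arm members over a gene start and -0.07 at the 1626 away from one.

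The arms were then divided into windows of 5 Mb. The groups did not overlap in 10 of 12 long-arm windows, all lower under Inflachromene, and in 0 of 5 short-arm windows. Over the genome 82 of 564 windows (14.5%) were lower without overlap and 18.4% higher. The chromosome was picked on its share of counts, so lower windows follow from that choice and are a description only. In the first long-arm window, from 25 to 30 Mb, the shares were 0.378% and 0.390% under Carrier and 0.359% and 0.350% under Inflachromene, with a fitted log2 fold change of -0.12 (95% interval -0.23 to -0.01), the lowest of the chromosome. The window from 65 to 70 Mb stood out on the long arm: its shares were 0.153%, 0.154%, 0.153% and 0.157%, and its fold change was 0.01. The groups also overlapped from 70 to 75 Mb, at 0.319% and 0.298% under Carrier and 0.275% and 0.310% under Inflachromene. The fold change of that window was -0.08. No window passed the test on chromosome 17 or elsewhere (edgeR's quasi-likelihood test, 0 of 564, 0%; smallest adjusted p on chromosome 17 0.440). At an unadjusted p under 0.05 there were 57 windows, 1 of them on chromosome 17, and DESeq2 called 10, 0 of them on chromosome 17.

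**Figure D1:**
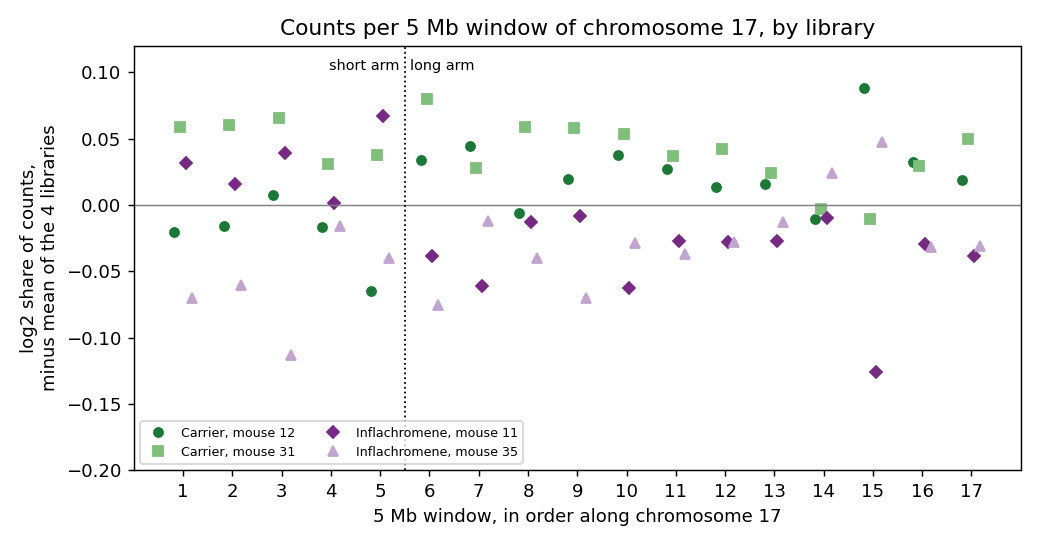
Share of counts in each 5 Mb window of chromosome 17, as log2 minus the mean of the 4 libraries (vertical axis), in order along the chromosome (horizontal axis); 1 point per library. On the short arm the Carrier (green) and Inflachromene (purple) points overlap in all 5 windows, and on the long arm they do not in 10 of 12.

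The long-arm share was then read in single nuclei. The median long-arm share over nuclei was 4.96% and 5.06% in the Carrier libraries and 4.75% and 4.82% in the Inflachromene libraries. The long-arm shares gathered near 5% in every library, and the Inflachromene libraries had another peak near 4%. In the Carrier libraries the lower shares trailed off without a clear peak of their own. Nuclei below a cut are called the lower group here. A cut at 4.4%, set after the distribution was seen and so given with no test, put 14.3% of nuclei of Carrier 12 (95% exact interval 12.7 to 16.0), 18% of Carrier 31 (15.2 to 21.1), 36% of Inflachromene 11 (33.2 to 38.8) and 31.4% of Inflachromene 35 (29.2 to 33.7) in the lower group; the intervals cover counting of nuclei only, and 33 to 91 nuclei per library lay within 0.1 points of the cut. The lower group was larger in both Inflachromene libraries than in either Carrier library. A planned count used preset limits around each library's median share of the whole chromosome, and its groups overlapped. Below the lower limit lay 1.13% and 5.41% of nuclei in Carrier 12 and Carrier 31. In Inflachromene 11 and Inflachromene 35 it was 2.20% and 1.33%. Outside either limit lay 1.75% and 6.58% under Carrier and 3.17% and 2.55% under Inflachromene. Within the lower group the median long-arm share was 3.99% to 4.06%, and above the cut 5.02% to 5.14%. Short-arm medians of the lower group and of the nuclei above the cut were 1.72% and 1.75% in Carrier 12, 1.64% and 1.83% in Carrier 31, 1.73% and 1.80% in Inflachromene 11, and 1.69% and 1.68% in Inflachromene 35. The short arm was thus lower in the lower group in 3 of 4 libraries, most in Carrier 31. Across nuclei of a library, which share that library's depth range, Spearman's rho of long-arm share with counts per nucleus was -0.06 to 0.06 (n = 684 to 1768 nuclei).

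In every library the lower group was mostly made of nuclei that other chromosomes also set apart, and the rest of it was main-type. Nuclei were classed without chromosome 17, after their distributions were seen: main-type nuclei had a log2 ratio of counts on the short arm of chromosome 3 to those on the short arm of chromosome 9 of at most 1.2, 11-high nuclei a higher ratio and more than 6% of counts on chromosome 11, and the rest are called other. A class of this kind is a range of values and not a cell type; 30 to 82 nuclei per library lay near the ratio cut and 14 to 53 near the chromosome 11 cut. The 11-high nuclei made up 10.2% and 10.5% of nuclei in Carrier 12 and Carrier 31, and 32.8% and 29.6% in Inflachromene 11 and Inflachromene 35. Of them 83.3%, 77.8%, 78.6% and 85.7% lay below the long-arm cut, in the same order, against 5.81%, 6.77%, 7.38% and 9.29% of main-type nuclei. These are shares of each class and not the make-up of the lower group, which also held main-type and other nuclei in every library. Nuclei above the ratio cut, 11-high and other together, made up most of the lower group. Their part of it was larger in both Inflachromene libraries than in either Carrier library.

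**Figure D2:**
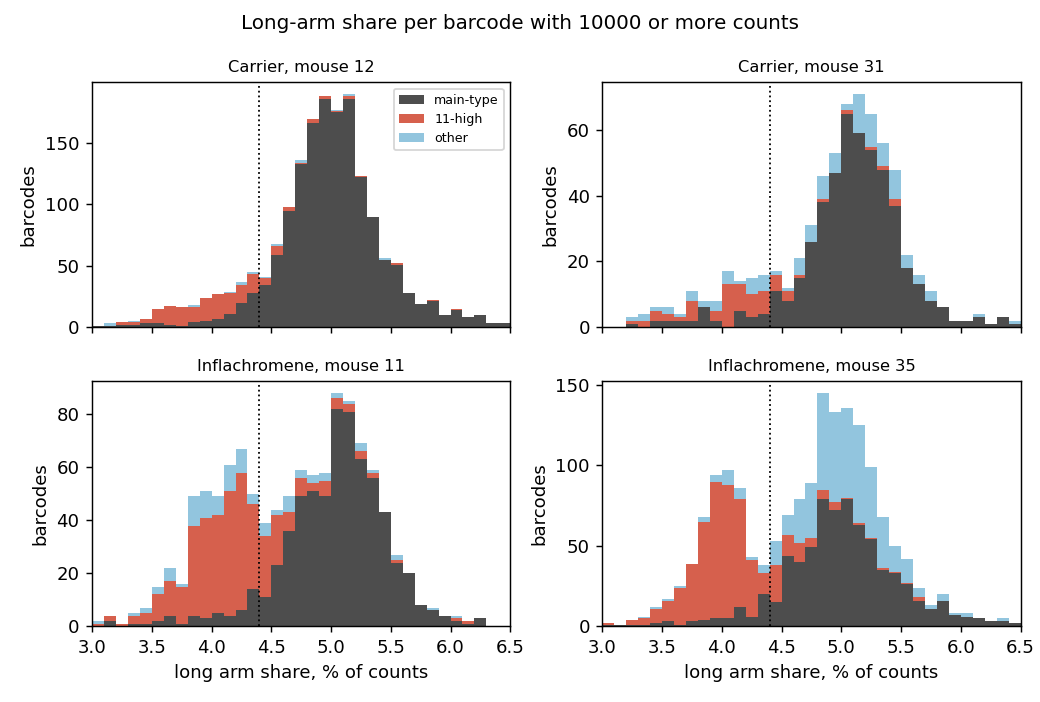
Number of nuclei (vertical axis) by the long arm's share of their counts in percent (horizontal axis), 1 panel per library, coloured by class; the dotted line is the cut at 4.4%. The 11-high nuclei (red) gather near 4% in every library and are a larger part of both Inflachromene libraries, while main-type nuclei (grey) gather near 5%.

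Within main-type nuclei the groups overlapped. Their median long-arm shares were 5.01% and 5.11% under Carrier and 5.08% and 5.0% under Inflachromene. The whole chromosome held 6.76% and 6.88% of their counts under Carrier and 6.82% and 6.72% under Inflachromene, a difference of -0.05 points (exact permutation p = 0.667, where 0.333 is the smallest possible) in place of -0.27 points over all barcodes. Without barcodes found in more than 1 library the difference over the others was -0.27 points.

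The 11-high nuclei were compared with main-type nuclei of the same library, which gives 4 ratios per window; since the classes were chosen on these nuclei, no test is given. Of the 12 long-arm windows, 11 lay below 0 in all 4 libraries, and of the 5 short-arm windows 0 did, against 21.8% of windows over the genome. The window from 50 to 55 Mb had ratios of -0.38, -0.38, -0.39 and -0.40 on the log2 scale in Carrier 12, Carrier 31, Inflachromene 11 and Inflachromene 35. The window from 0 to 5 Mb on the short arm had 0.05, 0.02, 0.02 and 0.05. The window from 65 to 70 Mb, whose treatment groups overlapped above, had -0.01, 0.03, 0.05 and -0.01. The window from 70 to 75 Mb, whose treatment groups also overlapped, had -0.43, -0.36, -0.33 and -0.42.

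Bins of 1 Mb showed that the lower counts were not even along the long arm but came in blocks. Of the 54 long-arm bins with at least 5 members, 38 lay below 0 in all 4 libraries, and of the 20 short-arm bins 0 did. Low stretches took turns with stretches near 0; their borders were read off the 1 Mb profile after it was seen, so their values are a description. The 5 low stretches run from 26 to 36, 39 to 44, 47 to 59, 61 to 64 and 69 to 84 Mb and hold 1631 members. The 4 flat stretches run from 36 to 39, 44 to 47, 59 to 61 and 64 to 69 Mb and hold 423 members. The mean log2 ratio of the low stretches lay between -0.40 and -0.26, and that of the flat ones between 0.01 and 0.07. Single bins departed from their stretch. Within low stretches the mean was 0.07 from 33 to 34 Mb and -0.11 from 34 to 35 Mb. It was -0.14 from 39 to 40 Mb, -0.08 from 43 to 44 Mb and -0.12 from 63 to 64 Mb. In a flat stretch, the bin from 65 to 66 Mb had 0.25. Over all low stretches together the ratio was -0.35 ± 0.0202, over the flat ones 0.04 ± 0.0194 and over the short arm 0.02 ± 0.0181 (SD, n = 4 libraries). Without barcodes found in more than 1 library the low stretches stood at -0.37, -0.28, -0.33 and -0.36 in the 4 libraries, and the flat ones at 0.06, 0.07, 0.04 and 0.02.

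**Figure D3:**
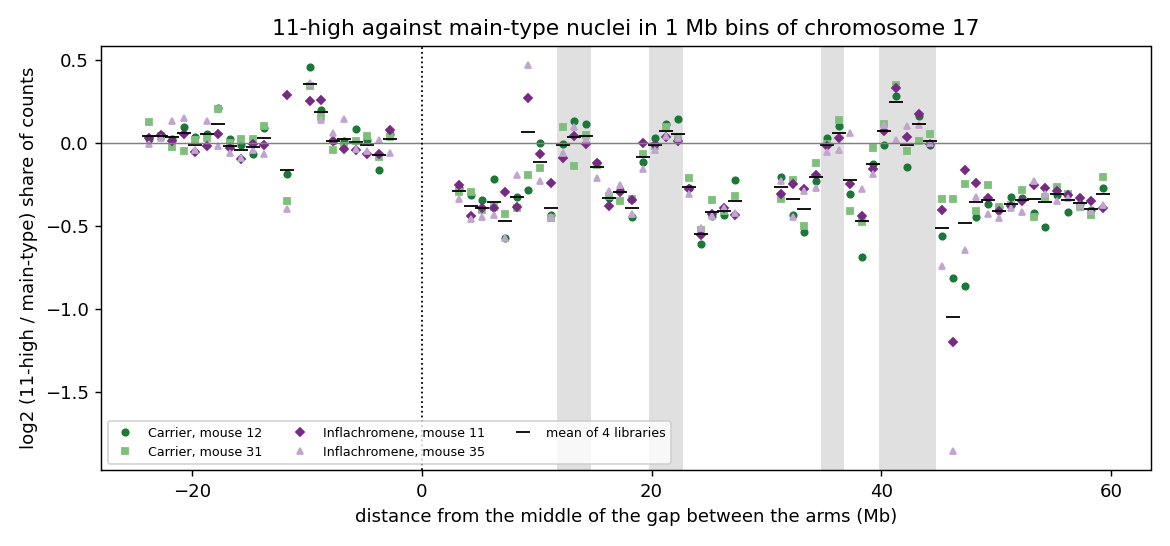
Log2 ratio of the share of counts in 11-high nuclei to that in main-type nuclei (vertical axis) for 1 Mb bins of chromosome 17 with at least 5 members, by distance from the middle of the gap between the arms (horizontal axis, short arm to the left); 1 point per library, the bar is their mean, and flat stretches are shaded. Of the 20 short-arm bins 0 lie below 0 in all 4 libraries and 3 lie above, with means of -0.16 to 0.36. The 54 long-arm bins run from -1.05 to 0.25, and 36 have a mean under -0.2.

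The shares of the stretches were also read per nucleus. The stretches were drawn from these same nuclei, so a contrast between the classes was fixed in advance and is a description. Low stretches held a median of 4.34%, 4.43%, 4.4% and 4.32% of the counts of main-type nuclei in Carrier 12, Carrier 31, Inflachromene 11 and Inflachromene 35, and 3.31%, 3.43%, 3.45% and 3.33% of those of 11-high nuclei. The quartiles of the classes did not meet in any library. Flat stretches held 0.662% to 0.687% in main-type and 0.685% to 0.711% in 11-high nuclei. In the comparison of treatments over all barcodes the low ones held 4.23% and 4.23% of counts under Carrier and 3.99% and 4.02% under Inflachromene, without overlap. The flat ones held 0.676% and 0.723% under Carrier and 0.699% and 0.687% under Inflachromene, with overlap. In main-type nuclei the low stretches held 4.36% and 4.42% under Carrier and 4.36% and 4.33% under Inflachromene, a log2 difference of -0.02 in place of -0.08.

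**Figure D4:**
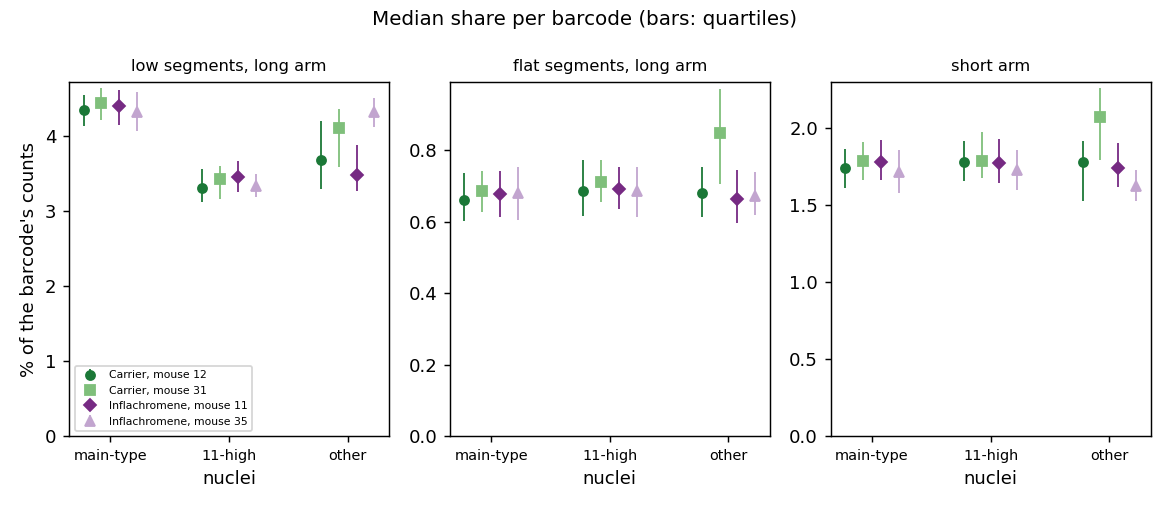
Median share of a nucleus's counts (vertical axis, percent; bars from the lower to the upper quartile) in the low stretches, the flat stretches and the short arm, by class of nuclei and library. In the low stretches, drawn from these same nuclei, the quartile bars of 11-high and main-type nuclei do not meet. The medians are 3.31% to 3.45% in 11-high and 4.32% to 4.43% in main-type nuclei.

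The counts of single members by stretch are a description, since the stretches were drawn from the same ratio in the same nuclei. In 11-high nuclei 904 of the 1631 members in low stretches (55.4%) lay below main-type nuclei in all 4 libraries and 27 (1.66%) above; in flat stretches the numbers were 39 (9.22%) and 63 (14.9%) of 423, and on the short arm 58 (7.97%) and 85 (11.7%) of 728. Over all regions of the genome 15.2% lay below and 14% above in all 4 libraries. On the long arm 55.9% of members over a gene start and 43.2% of those away from one were lower in all 4 libraries, with medians of -0.29 and -0.32.

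Between treatments, no single member passed the test (edgeR's quasi-likelihood test, Benjamini-Hochberg over 50771 regions, 0 called, 0%). At an unadjusted p under 0.05 there were 79 members, 41 lower and 38 higher under Inflachromene, which is 2.84% of members against 4.48% of all regions. DESeq2 called 28 of 42896 regions (0.0653%), 1 of them on chromosome 17. Without overlap between the groups, 674 members were lower (24.2%) and 215 higher (7.73%), against 17.5% and 14% of all regions. The median log2 fold change was -0.04 over the members and 0.01 over all regions, and 61.1% of members and 48.3% of all regions lay below 0. The median was -0.06 in low stretches, 0.01 in flat ones and -0.03 on the short arm. In main-type nuclei the members' median was -0.01, beside -0.01 over all regions. Single libraries decided the calls: without Inflachromene 11 edgeR called 115 members, 92 of them higher, beside 6.26% of all regions, and without Inflachromene 35 it called 9, beside 0.589%. Each of these fits rests on 1 treated library, whose spread is taken from the Carrier pair.

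Named here are 8 members in each direction, those of lowest unadjusted p where the groups stayed apart. The largest positive fold change was at chr17:34252173-34253220, between genes and 2065 bp from CCL2, which encodes a chemokine that attracts monocytes. Its level was 4.24 and 6.73 CPM in Carrier 12 and Carrier 31 and 14.5 and 17.3 CPM in Inflachromene 11 and Inflachromene 35, so both treated libraries stood above both controls. The log2 fold change was 1.54 (standard error 0.26, edgeR adjusted p = 1.00, DESeq2 adjusted p = 0.00305). This member lies in a low stretch but was higher in 11-high nuclei of every library, at 17.8, 23.8, 28.7 and 9.33 CPM against 2.70, 4.34, 6.20 and 4.23 CPM in main-type nuclei. In main-type nuclei alone its treatment fold change was 0.60. Its edgeR adjusted p was 3.16e-09 without Inflachromene 11, 0.000136 without Inflachromene 35, 0.0570 without Carrier 31 and 1.00 without Carrier 12, where the fold change was 1.249. Without barcodes found in more than 1 library the fold change was 1.65.

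A neighbour at chr17:34238460-34239410, 15875 bp from CCL2, had 3.84 and 4.74 CPM under Carrier and 9.18 and 8.29 CPM under Inflachromene, with a log2 fold change of 1.03. It was 0.92 in main-type nuclei and 0.61 without barcodes found in more than 1 library. None of the 14 CC chemokine genes on the list had a region at its start or outer end. The other 6 higher members lie within genes. A member in KSR1, a scaffold of the RAF and ERK kinase cascade (chr17:27539932-27540964), had 9.13 and 10.1 CPM under Carrier and 15.6 and 18.8 CPM under Inflachromene. A member in the adenosine receptor gene ADORA2B (chr17:15920451-15921417), on the short arm, had 9.50 and 10.9 CPM under Carrier and 16.3 and 20.4 CPM under Inflachromene. Members in PRKCA (protein kinase C alpha), BCAS3, B9D1 and ARSG had log2 fold changes of 1.09, 1.07, 0.89 and 0.77. Without barcodes found in more than 1 library the BCAS3 member stood at -0.00086, and the other 5 members within genes stood at 0.56 to 0.99. In main-type nuclei these 6 had fold changes of 0.11 (ADORA2B) to 1.14 (B9D1).

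Lower under Inflachromene was the member at the start of FAM117A (chr17:49762976-49764788), whose sequence is printed above. Its level was 46.8 and 47.4 CPM under Carrier and 34.4 and 21.7 CPM under Inflachromene, a log2 fold change of -0.75 (standard error 0.21, edgeR adjusted p = 1.00); in main-type nuclei it was -0.51. Without Inflachromene 11 its adjusted p was 1.39e-05, and without Inflachromene 35 0.444. A member in MSI2, which encodes the RNA-binding protein Musashi 2 (chr17:57662613-57663551), had 17.7 and 18.4 CPM under Carrier and 12.1 and 11.6 CPM under Inflachromene (-0.61; -0.32 in main-type nuclei). In 11-high nuclei it stood at -1.36 ± 0.278, below the -0.40 of the stretch it lies in. The other 6 lower members, near CSH1, MYOCD and B4GALNT2 and in VMP1, EFCAB5 and EFCAB13, had 1.87 to 7.22 CPM and log2 fold changes of -0.91 to -0.75. Without barcodes found in more than 1 library all 8 lower members stayed below 0, and the EFCAB13 member went from -0.90 to -0.60.

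**Figure D5:**
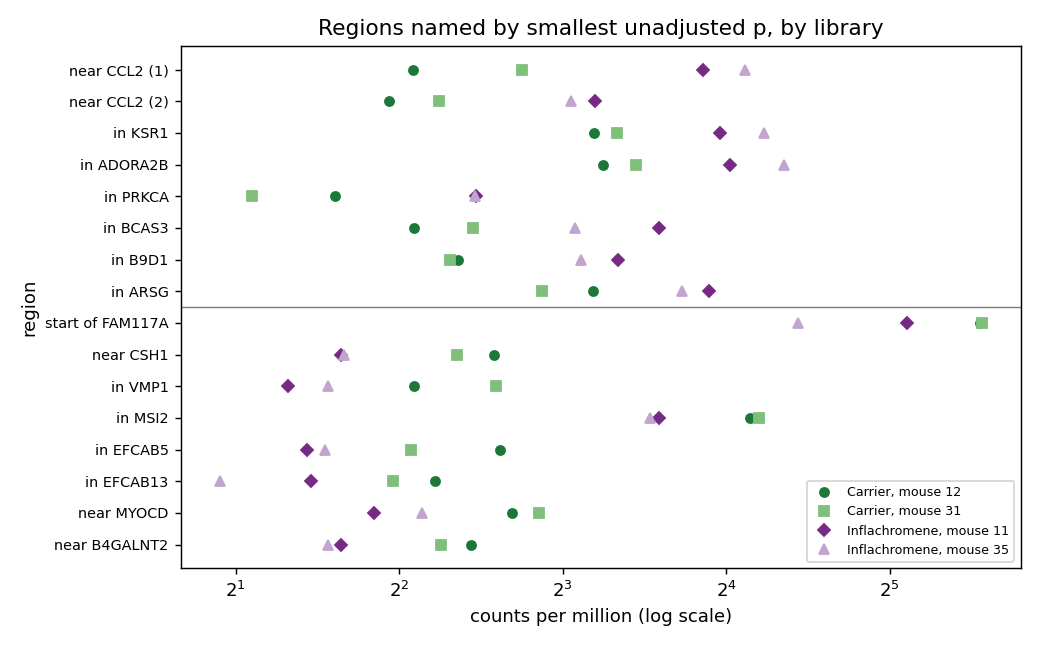
Level of the 16 named members (vertical axis, by gene) in each library, in CPM on a log2 axis; 8 higher members are above the line and 8 lower ones below it. The green Carrier and purple Inflachromene points do not overlap for any of them, which is how the members were chosen.

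Lists of known genes of the chromosome were read the same way. Each gene was read at its RefSeq start window or, where none was at hand, at the region within 1000 bp of an outer end of the gene, and 0 of them passed the test between treatments. Between treatments 17.5% of all regions were lower without overlap and 14% higher, and of all gene starts 6.54% and 15.5%. On the long arm 25.8% of members were lower and 6.62% higher. Genes named below as without overlap are therefore a description. In 11-high nuclei 14.8% of all gene starts of the genome stood below main-type nuclei in all 4 libraries. Of members over a gene start, 55.9% did on the long arm, where the low stretches lie, and 7.91% on the short arm. NF1, which restrains RAS, lies in the first low stretch: it had 73.2, 77.0, 76.2 and 70.8 CPM in the 4 libraries, and 11-high against main-type nuclei gave -0.48 ± 0.194 (SD, n = 4). BRCA1, a gene of homologous recombination, had 36.2, 39.9, 36.9 and 36.6 CPM and -0.17 ± 0.131.

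Of the 12 tumour suppressor and repair genes, all with a region, 5 were lower in 11-high nuclei of all 4 libraries and 1, the WNT pathway gene AXIN2, was higher (0.31 ± 0.243); AXIN2 lies in the flat stretch from 64 to 69 Mb. Their median log2 fold change between treatments was -0.04, beside 0.05 over all gene starts. The helicase gene BRIP1, in the low stretch from 61 to 64 Mb, stood at -0.49 ± 0.0590. PPM1D, a phosphatase of the DNA damage response, lies in the neighbouring flat stretch and stood at 0.08 ± 0.118. The ubiquitin ligase gene RNF43 had 9.17, 10.2, 8.63 and 7.56 CPM and the recombination gene RAD51D 39.9, 41.7, 38.7 and 37.2 CPM, and neither pair of groups overlapped (log2 fold changes -0.26 and -0.10).

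The neighbourhood of ERBB2 lies near the start of the low stretch from 39 to 44 Mb. Of its 21 genes 14 had a region, and 9 of these were lower in 11-high nuclei of all 4 libraries, with a median of -0.26. ERBB2 itself had 19.4 and 21.6 CPM under Carrier and 23.4 and 15.9 CPM under Inflachromene, and stood at 0.12 ± 0.176 in 11-high nuclei. Before it, MED1 and CDK12 stood at -0.08 ± 0.139 and 0.08 ± 0.396, and PNMT and the region shared by PPP1R1B and STARD3 at -0.29 ± 0.241 and -0.26 ± 0.188. Beyond it, IKZF3 stood at -0.13 ± 0.590, and PSMD3, MED24 and THRA at -0.42 ± 0.0847, -0.39 ± 0.202 and -0.47 ± 0.282. Between treatments IKZF3 (-0.46) and PNMT (-0.22) were lower without overlap, and MED1 (0.14) and NR1D1 (0.10) higher.

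Genes of mitosis and S phase had a median fold change between treatments of -0.03, and 9 of 17 were lower in 11-high nuclei. TOP2A, which encodes topoisomerase II alpha, had 88.3, 97.0, 87.8 and 94.8 CPM in the 4 libraries (-0.02), and stood at -0.32 ± 0.135 in 11-high nuclei. STAT3 had 100.5, 119.5, 107.2 and 94.7 CPM (-0.12) and -0.43 ± 0.115. SOCS3, an inhibitor of STAT signalling, had 83.4 and 93.9 CPM under Carrier and 98.2 and 96.0 CPM under Inflachromene (0.13), while 11-high nuclei stood at -0.38 ± 0.163. Of the 5 STAT and SOCS genes 4 were lower in 11-high nuclei, the exception being SOCS7 in the flat stretch from 36 to 39 Mb (0.01 ± 0.237).

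The HOXB genes, which pattern the body axis, had 6 regions among 10 genes, all lower in 11-high nuclei of every library with a median of -0.54. They lie in the low stretch from 47 to 59 Mb. The 79 members of its bin from 48 to 49 Mb had a median of -0.58, so the HOXB value is near that of its surroundings. HOXB9 stood at -0.84 ± 0.0952 and HOXB5 at -0.67 ± 0.275. Between treatments HOXB5, HOXB6 and HOXB13 were lower without overlap, by -0.07, -0.17 and -0.09, as were 25.8% of all long-arm members. The collagen gene COL1A1 stood at -0.61 ± 0.0238 in 11-high nuclei and had 80.6, 90.4, 83 and 75.4 CPM in the libraries. SOX9, a transcription factor of ductal cells, had 66.8, 76.8, 74.6 and 69.3 CPM (0.00) and stood at -0.25 ± 0.163. KRT19, a ductal keratin, had 19.3, 13.7, 15.5 and 18.6 CPM (0.05). It stood at -0.38 ± 0.320 in 11-high nuclei, with 0.09 in Inflachromene 11. COL1A1, SOX9 and KRT19 were each read at an outer end of the gene and not at a start window.

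Of 10 translation genes 5 lay below and 5 above 0, and of 6 splicing genes 3 and 3. In 11-high nuclei the initiation factor genes EIF1 and EIF4A3, both in low stretches, stood at -0.36 ± 0.123 and -0.40 ± 0.180. EIF4A1 and EIF5A, on the short arm, stood at -0.02 ± 0.0914 and 0.02 ± 0.0639. RPL27, a ribosomal protein gene in the stretch from 39 to 44 Mb, went against its stretch at 0.15 ± 0.135. Of the growth hormone cluster 3 of 5 genes had a region, all read at an outer end and between 4.04 and 6.99 CPM, and CSHL1 (-0.56) and GH2 (-0.37) were lower under Inflachromene without overlap. Of the list of Polycomb and CBX genes, EZH1, SUZ12, CBX1 (the heterochromatin protein HP1 beta) and CBX2 had fold changes between treatments of -0.15, 0.10, 0.07 and -0.15, the adhesion genes ITGB4 and ITGB3 0.29 and 0.12, and the protease inhibitor gene TIMP2 -0.33. Without barcodes found in more than 1 library ITGB4 stood at 0.11, TIMP2 at -0.22, GH2 at -0.57, RAD51D at -0.20 and HOXB13 at -0.22.

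A few members in 11-high nuclei went far beyond or against their stretch; they were chosen after their values were seen. The start of FBXO47 (chr17:38967028-38967974), in a flat stretch, had 16.7, 12.5, 10.6 and 7.72 CPM in 11-high nuclei of the 4 libraries and 4.17, 3.67, 3.18 and 1.28 CPM in main-type nuclei. Over all barcodes its groups overlapped (5.46, 5.92, 6.39 and 5.48 CPM). Among members lower in all 4 libraries, the lowest ratio, -3.20 ± 0.912, was at chr17:69967647-69968601, between MAP2K6 and KCNJ16. That member had 10.7, 3.17, 11.6 and 11.1 CPM in main-type nuclei and 1.09, 0, 2.85 and 0.858 CPM in 11-high nuclei. Next came members near TMEM100 (chr17:55735432-55736418) and in ARSG (chr17:68356255-68357253), at -2.11 ± 1.71 and -1.97 ± 1.98. Both had 0 CPM in 11-high nuclei of Carrier 12, where the 0.5 counts added gave ratios of -4.53 and -4.88. In the other libraries the ratios were -1.85 to -0.55 and -1.38 to -0.50, so the rank rests on Carrier 12. The ARSG member lies in a flat stretch. A member at chr17:69608580-69609992, also between MAP2K6 and KCNJ16, stood at -1.88 ± 1.11. The bins from 69 to 72 Mb hold only 16, 6 and 17 members, so the depth of the low ratios there rests on few regions.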

How the data were processed

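The authors deposited 1 peak list and 1 matrix of raw counts per peak and barcode for each library, made with Cell Ranger ATAC 2.1.0 on GRCh38, per the file headers and the submitters' processing notes, which also name Cell Ranger ARC without a version. How barcodes were kept and how doublets were treated is not given in the sources used here, and no doublet caller was run. Most matrix entries (82.4% to 84.9%) are even numbers, so 2 counts are often 1 molecule. The deposited peak positions and barcode sequences carry no measurement of another unit.

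The 4 peak lists were merged at 1 bp overlap, and counts of peaks in a merged region were summed. The members and the gene lists were chosen with earlier results of these data known. Shares are percent of counts over all regions found in 4 libraries; CPM are counts scaled to 1000000 over the same regions, with TMM factors for whole libraries and without them for classes of nuclei. Differences between treatments were fitted over all regions, and over all 5 Mb windows with at least 10 regions, with edgeR 4.0.16 (quasi-likelihood, TMM, a filter on low counts that removed 0 regions; R 4.3.3) and Benjamini-Hochberg adjustment at 0.05, with DESeq2 1.42.0 as an alternative. Single values were compared with exact two-sided permutation tests (scipy 1.17.1). Each p-value measures the spread between these mice only. Ratios between classes of nuclei were given no test. Those of single regions had 0.5 counts added, and those of windows, bins and stretches were taken from summed counts with none added. The edgeR step was tested on simulated data.

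Regions named were up to 8 in each direction by lowest unadjusted p where the groups stayed apart, plus 10 genes fixed by name and up to 4 per list with the smallest p; others were picked after their values were seen, to show a stretch. CCL2, one of the 10, had no region at its start or outer ends. Another of the 10 is not reported here. Gene positions and start sequences are RefSeq's (GRCh38.p14).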

Additional observations from a re-analysis of the deposited data

How the results depend on the processing

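With DESeq2 1 member was called in place of 0. Leaving out each library in turn gave 0 to 115 called members, and a median log2 fold change over the members of -0.10 (without Inflachromene 11) to -0.031 (without Carrier 31). The causes were not tested. The same step gave a chromosome 17 share difference of -0.34 to -0.21 points, a per-nucleus median difference of -0.35 to -0.20 points, 0 called windows and 11 windows lower in 11-high nuclei. The share difference was negative under all 14 alternatives, from -0.34 points without Carrier 12 to -0.05 points in main-type nuclei; counting every entry above 0 as 1 gave -0.17 points. With cuts at 4.2% and 4.6%, chosen after seeing the data, the difference in long-arm-low nuclei was 14.6 and 19.5 points in place of 17.5. The alternatives on shared barcodes and classes of nuclei were also chosen after seeing the data. With 2 libraries against 2, no exact permutation test can go below 0.333, and the 72 to 511 11-high nuclei of a library limit the ratio of a single member. No paired analysis was possible because the groups share no replicate numbers.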

Other observations

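Nuclei in neither class, which made up 1.24%, 16.1%, 8.80% and 28.0% of nuclei in Carrier 12, Carrier 31, Inflachromene 11 and Inflachromene 35, differed between libraries on chromosome 17. Their median long-arm share was 4.34%, 4.93%, 4.16% and 5.0%, in the same order. In Carrier 31 their flat stretches held 0.848% and their short arm 2.07% of counts, against 0.687% and 1.79% in main-type nuclei of that library. In Inflachromene 35 their low stretches held 4.32%, the same as in its main-type nuclei, and their short arm 1.62%.

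Across nuclei of a library the arms went together only loosely. Pearson's r between short-arm and long-arm share was 0.24, 0.52, 0.33 and 0.13 in Carrier 12, Carrier 31, Inflachromene 11 and Inflachromene 35 (n = 1768, 684, 1137 and 1726 nuclei, which share a library and a sum of 100%). The mean r over the 66 pairs of long-arm windows was 0.15 to 0.28, and between windows of different arms 0.04 to 0.17.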
